A study of Homo sapiens with 28 samples.

Results

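The experiment described here set LNCaP cells that received the ATF4 siRNA siATF4-2 and then tunicamycin against LNCaP cells that received a control siRNA and then tunicamycin. LNCaP is an established human prostate cancer cell line, described in the labels as metastatic. The comparison was between 8 of the 28 libraries in the series, all that carried either label, over all 25369 genes of the deposited table. The gene filter, scaling and spread were estimated from all 28 libraries. These include tunicamycin groups given a PERK inhibitor or PERK siRNAs, which are not described here. Genes were not chosen by their values.

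The groups, each of 4 libraries, were as follows. TM siATF4-2 cells were transfected with the siRNA named siATF4-2 and given tunicamycin at 2.5 µg/mL for 18 h, starting 2 days after transfection. TM siATF4-3 cells had the same treatment after transfection with the other ATF4 siRNA. TM siCtrl cells had the same treatment after transfection with the non-targeting siRNA siCtrl. DMSO siCtrl cells carried siCtrl and received the solvent DMSO in place of tunicamycin. Transfection is thus common to all groups, and none of them is untransfected. The sample titles call the oligo siATF4-2, whereas the treatment field calls the same samples ATF4 oligo 1. The siRNA sequences were not analysed here. The series describes 4 independent experiments, so the spread between libraries covers repeated cultures of 1 cell line.

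Tunicamycin inhibits DPAGT1, the enzyme that begins the N-glycan precursor, so that unfolded glycoproteins accumulate in the endoplasmic reticulum (ER). The sensor kinase PERK (gene EIF2AK3) then phosphorylates eIF2α, which lowers general translation but increases translation of the ATF4 messenger RNA. ATF4 is a basic leucine zipper factor that binds composite C/EBP-ATF elements together with C/EBP family partners, and it is known for inducing genes of amino acid synthesis, amino acid transport, tRNA charging and the CHOP branch of the stress response.

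Values below are CPM (read counts relative to library size, scaled with TMM factors) for single libraries in the order of replicates 1 to 4, and log2 changes ± SE from edgeR's quasi-likelihood test. A gene was called at a Benjamini-Hochberg adjusted p under 0.05 over the 14314 genes with enough counts. Total counts were 12014347 to 13608748 in the TM siATF4-2 libraries and 14052883 to 17253801 in the TM siCtrl libraries. The 10 most abundant genes took 5.74% to 6.22% of the counts in TM siATF4-2 and 7.16% to 7.57% in TM siCtrl.

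ATF4 (hg19 chr22:39916564-39918691, plus strand) had 221, 194, 177 and 358 CPM in the TM siATF4-2 libraries, 115, 98.5, 102 and 140.4 CPM in the TM siATF4-3 libraries, 1479, 1487, 1562 and 1517 CPM in the TM siCtrl libraries and 539.5, 545, 614 and 723 CPM in the DMSO siCtrl libraries. No library of TM siATF4-2 overlapped any of the other groups, and the change against TM siCtrl was −2.67 ± 0.16 on the log2 scale (adjusted p = 1.92e-12). The remaining ATF4 messenger RNA was 14.6%, 12.8%, 11.7% and 23.7% of the TM siCtrl mean, so that replicate 4 kept the most. With siATF4-2, ATF4 stayed above its level with siATF4-3 (1.06 ± 0.16, adjusted p = 6.1e-05) and below its level in DMSO siCtrl (−1.35 ± 0.15, adjusted p = 6.27e-08). Fitted on the libraries of both ATF4 siRNAs alone, the difference between them was 1.05 with an adjusted p of 0.0541 in edgeR. EIF2AK3, the gene of PERK, had 98.1, 108, 92.6 and 103 CPM in TM siATF4-2 and 79.9, 95.2, 90.7 and 90.97 CPM in TM siCtrl. The highest TM siCtrl library exceeded the lowest TM siATF4-2 library, and the change of 0.17 ± 0.06 (adjusted p = 0.0227) missed the threshold with upper-quartile scaling (adjusted p = 0.0773), without replicate 2 of TM siATF4-2 (0.0981) and without replicate 1 of TM siCtrl (0.131).

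**Figure D1:**
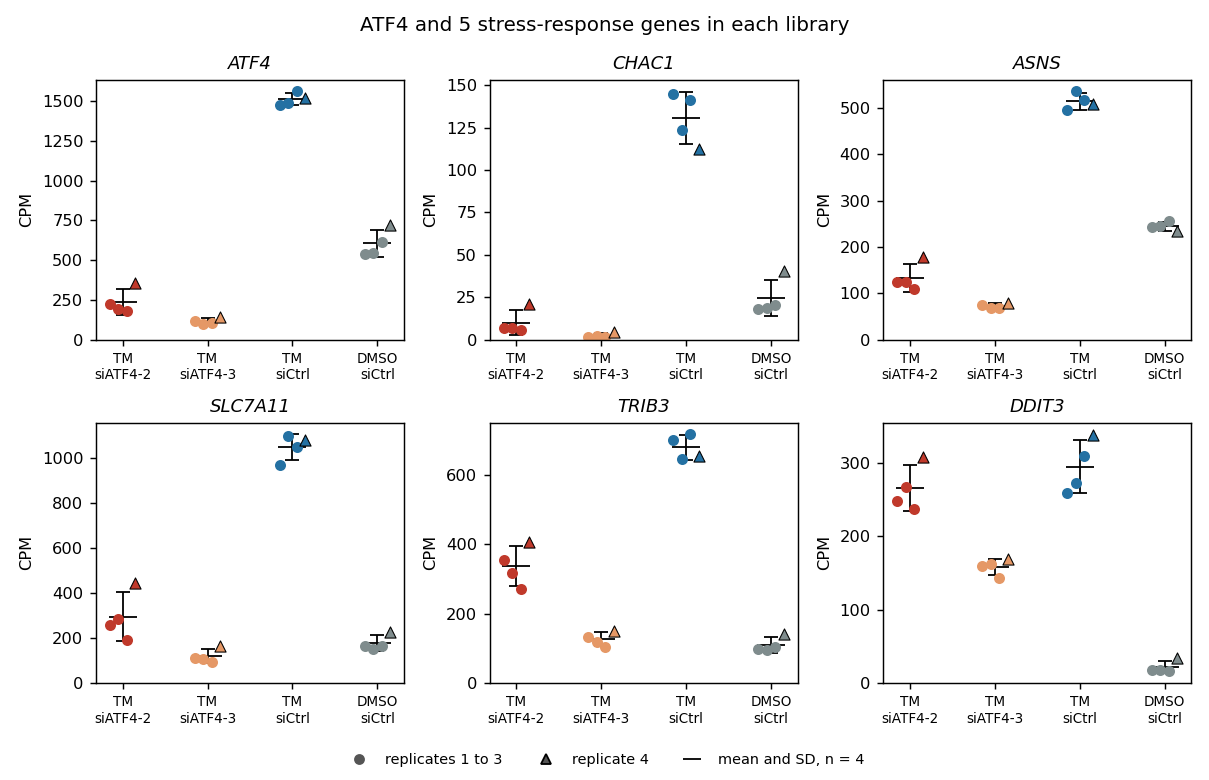
CPM of ATF4 and 5 stress-response genes in each library, with TM siATF4-2 at the left, then TM siATF4-3, TM siCtrl and DMSO siCtrl. Points are libraries (triangle: replicate 4), and bars are the mean and SD of 4 libraries. ATF4, CHAC1, ASNS, SLC7A11 and TRIB3 were lower in all TM siATF4-2 libraries than in any TM siCtrl library, while DDIT3 overlapped between these groups.

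Replicate 4 of TM siATF4-2 stood closer to TM siCtrl than the other libraries of its group did. Over the 642 genes called at least 2-fold lower, the median log2 ratio to the TM siCtrl mean was −1.36, −1.37, −1.50 and −1.08 in the TM siATF4-2 libraries. The same median was −1.57 to −1.74 in the TM siATF4-3 libraries and −1.31 to −1.40 in the DMSO siCtrl libraries. Replicate 4 was the library nearest to the TM siCtrl mean for 66.5% of these 642 genes, for 54.5% of the 235 genes called at least 2-fold higher and for 41.7% of all genes tested. In TM siATF4-3, replicate 4 also had the highest ATF4 of its group, and DMSO siCtrl had its highest ATF4 there too, but TM siCtrl did not. Leaving this library out gave 4074 genes called higher and 3860 called lower, of which 3897 and 3677 were also called with it. The genes at least 2-fold lower then numbered 760, and those at least 2-fold higher 264. The count of stress regulators called lower, given below, was 24 of 28 with and without it. Which step set replicate 4 apart was not tested.

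**Figure D2:**
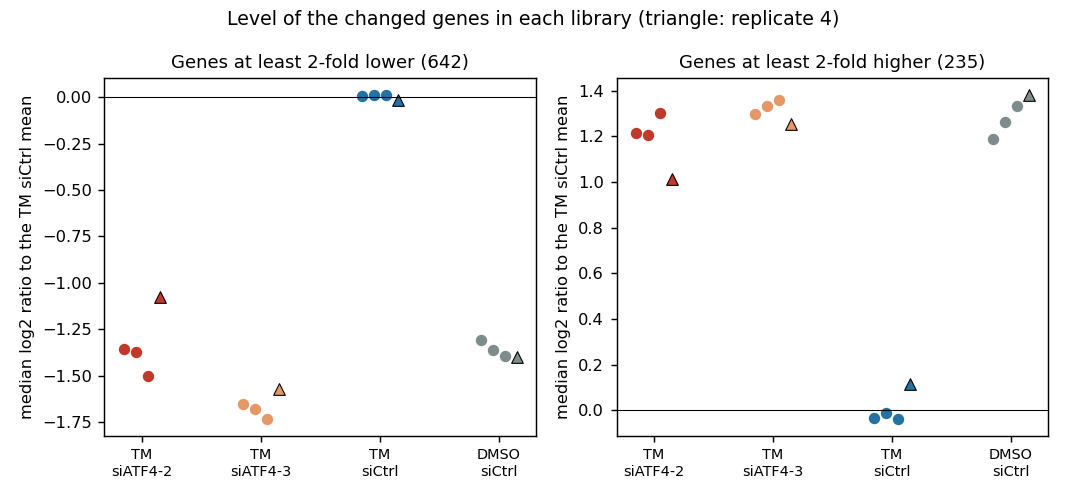
Median log2 ratio to the TM siCtrl mean in each library, over the 642 genes called at least 2-fold lower (left) and the 235 called at least 2-fold higher (right) with siATF4-2. Points are libraries and the triangle is replicate 4, which sits nearest to zero within TM siATF4-2 in both panels. The genes were chosen on these same libraries, so the heights are a description.

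With siATF4-2, 4061 genes were called higher (28.4% of those tested) and 3899 were called lower (27.2%) than in TM siCtrl. Most of these changes were small, with a median absolute log2 change of 0.42 among the called genes. Changes of at least 2-fold were uneven, with 642 genes lower (4.49%) and 235 higher (1.64%). The values of the groups did not overlap for 3418 higher genes (23.9%) and 3278 lower genes (22.9%). The median log2 change over all genes tested was −0.00 and moved by at most 0.04 between scaling methods. These shares are the background against which the gene lists below are read. In bulk RNA, fewer cells of a type and less RNA per cell cannot be told apart.

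**Figure D3:**
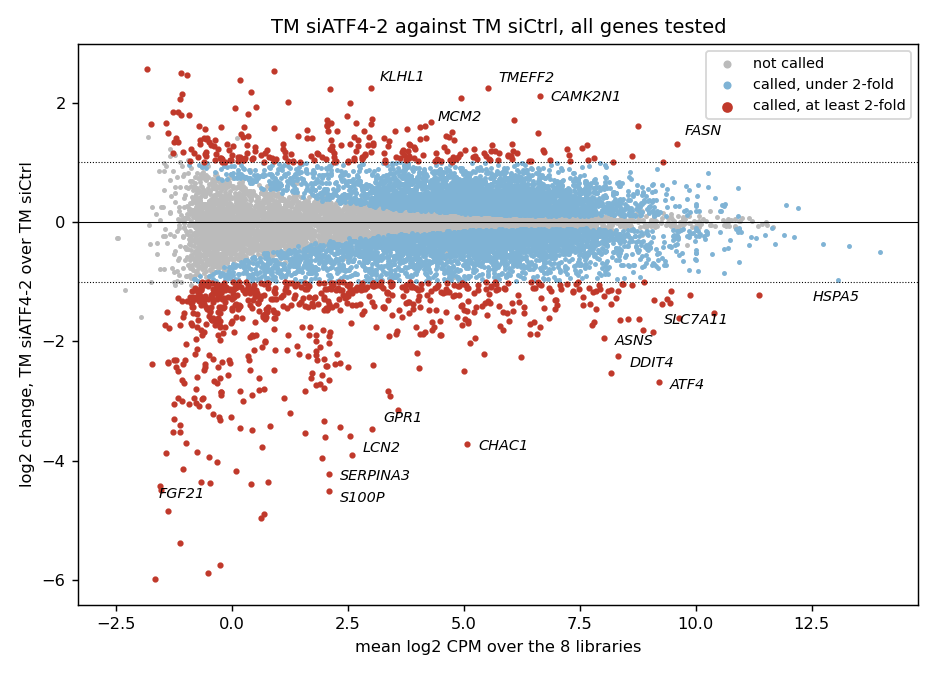
Log2 change with siATF4-2 over TM siCtrl (vertical) against the mean log2 CPM over the 8 libraries (horizontal) for the 14314 genes tested. Red points are called and changed at least 2-fold, blue points are called below that size, grey points are not called, and dotted lines mark 2-fold. The 642 red points below zero outnumber the 235 above it, and ATF4, CHAC1, DDIT4 and ASNS lie among the abundant ones.

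The stress regulators downstream of ATF4 and CHOP were the list with the lowest median. Of 28 tested members, 24 were called lower and 0 higher, with a median log2 change of −0.88 against −0.00 over all genes. In the higher direction, edgeR had 0 members even at an unadjusted p under 0.05, and DESeq2 and limma-voom also called 0. CHAC1 (hg19 chr15:41245636-41248717, plus strand), an enzyme that breaks down glutathione, had 6.63, 6.59, 5.83 and 20.98 CPM in TM siATF4-2 and 145, 124, 142 and 113 CPM in TM siCtrl. Its groups were far apart although replicate 4 of TM siATF4-2 held about 3 times as much as the others (−3.72 ± 0.28, adjusted p = 1.73e-10). DDIT4, an inhibitor of mTORC1 signalling also called REDD1, had 118, 112, 118 and 265 CPM in TM siATF4-2 against 710.4, 720.0, 728 and 749.7 CPM in TM siCtrl (−2.25 ± 0.22). Again only replicate 4 of TM siATF4-2 exceeded its group by a wide margin, and it too stayed below every TM siCtrl library. ATF5, a related leucine zipper factor, fell to 25.99 to 43.2 CPM, against 103 to 121 CPM in TM siCtrl (−1.81 ± 0.12). FAM129A, a stress-induced gene also named NIBAN1, had 51.5, 57.5, 36.7 and 75.6 CPM in TM siATF4-2 and 178, 201, 190.2 and 178 CPM in TM siCtrl (−1.76 ± 0.18). ATF3, a stress-induced transcriptional repressor, had 138, 145, 118 and 169 CPM in TM siATF4-2 and 305, 317, 324 and 278 CPM in TM siCtrl (−1.10 ± 0.14). The pseudokinase TRIB3, which binds AKT and ATF4, fell to 270.0 to 408 CPM, against 646 to 719 CPM in TM siCtrl (−1.01 ± 0.13). No range of TM siATF4-2 overlapped that of TM siCtrl for these genes. In the wider list of bZIP and C/EBP family factors, 16 of 39 tested members were called lower and 11 higher (median −0.19), with CREB5 (1.54 ± 0.18) and HLF (1.65 ± 0.15) the most raised. Of 28 p53 targets, 8 were called lower and 11 higher (median 0.13), and of 29 cell death regulators, 12 were called lower and 7 higher (median −0.08). TNFRSF10B, the death receptor DR5, had 195, 191, 174 and 221 CPM in TM siATF4-2 and 382, 362, 367 and 318 CPM in TM siCtrl (−0.87 ± 0.08), with no overlap.

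4 members were not called, namely DDIT3, CEBPG, BBC3 and DNAJC3. DDIT3, which encodes CHOP, had 248, 268, 238 and 309 CPM in TM siATF4-2 and 259, 273, 309 and 339 CPM in TM siCtrl, with overlapping groups and a difference of −0.15 ± 0.14 (adjusted p = 0.389). In DMSO siCtrl, DDIT3 had 17.8, 17.5, 15.9 and 33.2 CPM, so with siATF4-2 it stayed far above the level without tunicamycin (3.64 ± 0.17). CEBPG, a C/EBP partner of ATF4, had 177, 192, 171 and 192 CPM in TM siATF4-2 and 190.2, 197, 195 and 204 CPM in TM siCtrl (−0.10 ± 0.06, adjusted p = 0.169). The proapoptotic gene BBC3, encoding PUMA, differed by −0.02 ± 0.13 and the co-chaperone DNAJC3 by 0.04 ± 0.05. DDIT3 overlaps MARS in the exon models of the deposited tables, and the use of strand in counting is not stated, so reads of the pair may not be separable. In a fit of only the TM siATF4-2 and TM siCtrl libraries with the replicate number as a block, an alternative chosen after seeing the data, edgeR called DDIT3 (−0.16, adjusted p = 0.0107) and CEBPG (−0.12, adjusted p = 0.0169) lower. The block over all groups called neither. The misses do not show that the levels were alike. With siATF4-3, all 28 tested members of the list, these 4 included, were called lower than in TM siCtrl (median −1.42).

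The composite C/EBP-ATF element was searched as TGATGNAA on either strand, in RefSeq promoter windows of 300 bases (250 before and 50 after a transcript start, GRCh38.p14). Of the 642 genes called at least 2-fold lower, 470 matched a window, and 44 of their 725 windows (6.07%) held the element. It was held by 5 of 241 windows (2.07%) of the genes called at least 2-fold higher, by 333 of 16036 windows (2.08%) of all genes tested and by 3.62% of the 35116 windows in the whole table. Among the windows of the 24 matched stress regulators, 5 of 37 held it. Among those of the 12 matched cytosolic tRNA synthetases, 5 of 15 did, but only 2 of 15 before the start. A gene can have several windows, so a shared site can be counted again. A match is a run of letters and not shown to be a binding site. Among the 53 genes that the naming rule picks and that were called at least 2-fold lower, 42 had a window. Matches in named genes were not counted or printed for every chromosome, whereas windows were. The 7 genes found with a match before the start are therefore a minimum. Their matches are printed to show which spellings accompany the lowered genes, 30 bases each in the direction of the gene, with the element or its reverse complement in capitals.
CHAC1 (chr15:40953251-40953280, plus strand): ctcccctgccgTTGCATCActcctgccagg
FGF21 (chr19:48755459-48755488, plus strand): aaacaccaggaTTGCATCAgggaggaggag
SLC1A5 (chr19:46784893-46784922, minus strand): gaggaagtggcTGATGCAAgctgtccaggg
BCAT1 (chr12:24949131-24949160, minus strand): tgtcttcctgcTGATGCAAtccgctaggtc
ASNS (chr7:97872458-97872487, minus strand): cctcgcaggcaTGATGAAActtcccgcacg
MCFD2 (chr2:46916232-46916261, minus strand): tgttgtggtcgTTTCATCAagaaggaatta
S100P (chr4:6693744-6693773, plus strand): acaacgatgcaTTTCATCAgaactgagcac
CHAC1, FGF21, SLC1A5 and BCAT1 held the spelling TGATGCAA on either strand, whereas ASNS, MCFD2 and S100P held TGATGAAA. The ASNS match began 68 bases before the start. The raised genes KLHL1 and CREB5 also had a match. With the core spelling TGATGCAA alone, the shares were 2.48% for the genes at least 2-fold lower and 0.567% for all genes tested.

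Genes of amino acid supply fell in part. In the list of serine, glycine and one-carbon enzymes, 8 of 16 tested members were called lower and 5 higher (median −0.14). The serine synthesis enzymes PSAT1 and PHGDH were at the low end. PSAT1 had 234, 246, 195 and 333 CPM in TM siATF4-2 and 865, 947, 899.7 and 823 CPM in TM siCtrl (−1.81 ± 0.10), and PHGDH had 245, 228, 205 and 330.4 CPM in TM siATF4-2 and 796, 759.6, 793 and 764 CPM in TM siCtrl (−1.63 ± 0.10). The mitochondrial folate enzyme MTHFD2 fell to 113 to 171 CPM, against 372 to 410.0 CPM in TM siCtrl (−1.46 ± 0.08), and ALDH1L2, also of mitochondrial folate metabolism, changed by −1.42 ± 0.16 at 1.23 to 2.16 CPM in TM siATF4-2. TYMS, thymidylate synthase, went the other way (1.16 ± 0.09), at 28.7 to 34.1 CPM in TM siATF4-2 and 12.7 to 15.7 CPM in TM siCtrl. The list thus held a lowered serine and mitochondrial folate set beside a raised gene of DNA precursor synthesis.

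Among 19 tested enzymes of asparagine, proline, alanine, cysteine and glutamine metabolism, 9 were called lower and 4 higher (median −0.23). ASNS, asparagine synthetase, had 125, 123, 108 and 178 CPM in TM siATF4-2 and 495, 538, 516 and 508 CPM in TM siCtrl, again with replicate 4 of TM siATF4-2 nearest to TM siCtrl (−1.95 ± 0.09, adjusted p = 1.71e-15). CTH, which makes cysteine from cystathionine, fell to 7.45 to 12.01 CPM, against 31.3 to 37.8 CPM in TM siCtrl (−1.84 ± 0.10). ASS1, argininosuccinate synthase, fell to 43.9 to 63.3 CPM, against 152 to 173 CPM in TM siCtrl (−1.68 ± 0.08). BCAT1, a branched-chain aminotransferase, was also called lower (−1.65 ± 0.38) but at under 1 CPM in every TM siATF4-2 library.

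Of 25 tested amino acid transporters, 13 were called lower and 5 higher (median −0.48). SLC7A11, the cystine importer of system xc, had 255, 284, 191 and 445 CPM in TM siATF4-2 and 967, 1096, 1049 and 1079.5 CPM in TM siCtrl (−1.84 ± 0.19). The glycine transporter SLC6A9 fell to 24.8 to 52.4 CPM, against 161 to 175 CPM in TM siCtrl (−2.26 ± 0.16), and the glutamine transporter SLC1A5 to 104 to 169.8 CPM, against 376 to 434 CPM in TM siCtrl (−1.67 ± 0.11). In all 3, the groups did not overlap. SLC38A5 was raised by 2.15 ± 0.49 at 0.48 to 0.886 CPM in TM siATF4-2 and 0.0594 to 0.238 CPM in TM siCtrl, a level of few reads.

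Aminoacyl-tRNA synthetases, which charge tRNAs, were counted as a cytosolic and a mitochondrial list. Of 21 tested cytosolic synthetases, 12 were called lower and 6 higher (median −0.38), and of 17 mitochondrial ones 1 was called lower and 8 higher (median 0.12). The cytosolic share called higher was close to that of all genes tested (28.4%). Without replicate 2 of TM siATF4-2, 5 mitochondrial ones were called higher and 2 lower, and without replicate 1 of TM siCtrl 2 were called lower. The difference between the compartments was not tested. GARS, the glycyl-tRNA synthetase, had 370.5, 391, 309 and 489 CPM in TM siATF4-2 and 973, 1034, 1030.5 and 986 CPM in TM siCtrl (−1.37 ± 0.10), and CARS, the cysteinyl enzyme, had 74.4 to 100.2 CPM in TM siATF4-2 and 164 to 177 CPM in TM siCtrl (−0.92 ± 0.07). The raised cytosolic members included TARSL2, a threonyl enzyme paralog (1.15 ± 0.07), and FARSB, a subunit of the phenylalanyl enzyme (0.95 ± 0.06), with no overlap between groups. MARS2, the mitochondrial methionyl enzyme, rose to 34.9 to 43.3 CPM, against 18.02 to 19.9 CPM in TM siCtrl (1.00 ± 0.07). Of 39 tested translation initiation factors, 14 were called lower and 18 higher (median 0.11). EIF4EBP1, the mTORC1-regulated repressor of cap-dependent translation, fell to 83.7 to 108 CPM, against 192 to 214 CPM in TM siCtrl (−1.12 ± 0.06). EIF3B and EIF2S1, subunits of eIF3 and eIF2, rose by 0.66 and 0.66. EIF4A1 was listed at 0 in all libraries, which does not show that the cells lacked its RNA. The reason for the 0 was not tested.

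Among genes that averaged at least 1 on the log2 CPM scale over the 8 libraries, with separate groups and a standard symbol, the 12 most lowered ran from S100P (−4.51) to ABCA4 (−3.20). S100P (hg19 chr4:6695566-6698897), a calcium-binding protein, had 0.737, 0.435, 0.295 and 2.32 CPM in TM siATF4-2 and 23.9, 20.1, 19.97 and 21.1 CPM in TM siCtrl (−4.51 ± 0.21, adjusted p = 8.5e-18). SERPINA3, a secreted protease inhibitor, had 0.573, 0.652, 0.591 and 2.16 CPM in TM siATF4-2 and 21.00, 18.96, 17.6 and 16.4 CPM in TM siCtrl (−4.23 ± 0.24). LCN2, the iron-siderophore carrier lipocalin 2, had 1.06, 0.725, 1.18 and 3.52 CPM in TM siATF4-2 and 20.7, 24.9, 23.7 and 27.2 CPM in TM siCtrl (−3.91 ± 0.25). For S100P, SERPINA3 and LCN2, replicate 4 was the highest TM siATF4-2 library, at several times the level of the others. The lysosomal membrane protein LAMP3 fell to 0.443 to 1.84 CPM, against 14.3 to 15.04 CPM in TM siCtrl (−3.95 ± 0.24). GPR1, a receptor for chemerin, had 1.3 to 4.64 CPM in TM siATF4-2 and 25.6 to 28.4 CPM in TM siCtrl (−3.48 ± 0.20). The others were FLRT1, a cell-surface protein with leucine-rich repeats (−3.61), FIBIN (−3.59), ERICH2 (−3.54), the homeodomain-only protein HOPX (−3.43), the iron-binding lactotransferrin LTF (−3.33) and the lipid transporter ABCA4 (−3.20). Of the 12, CHAC1 was the most abundant in TM siCtrl.

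Secreted stress factors were lower for 10 of 19 tested members and higher for 1 (median −0.55). FGF21, a metabolic stress hormone, had 0.164, 0, 0 and 0.24 CPM in TM siATF4-2 and 2.38, 1.96, 2.03 and 2.32 CPM in TM siCtrl (−4.38 ± 0.45), with 2 TM siATF4-2 libraries at 0 counts. STC2, a secreted glycoprotein, had 107, 112, 93.9 and 170.0 CPM in TM siATF4-2 and 401, 400.0, 413 and 387 CPM in TM siCtrl (−1.73 ± 0.14). HBEGF, an EGF receptor ligand, fell to 6.35 to 10.97 CPM, against 29.3 to 36.5 CPM in TM siCtrl (−1.88 ± 0.13). GDF15, a stress cytokine, had 1254, 1194, 950.0 and 1264 CPM in TM siATF4-2 and 2487, 2092, 2031 and 1863 CPM in TM siCtrl (−0.86 ± 0.13). The angiogenic factor VEGFA fell to 178 to 264 CPM, against 457 to 509 CPM in TM siCtrl (−1.16 ± 0.11). None of these 5 genes overlapped between the groups.

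Autophagy and lysosome genes were called lower for 26 of 35 tested members and higher for 2 (median −0.29). MAP1LC3B, the autophagosome protein LC3B, had 65.5, 68.7, 48.7 and 82.00 CPM in TM siATF4-2 and 202, 212, 201 and 194 CPM in TM siCtrl (−1.61 ± 0.12). WIPI1, which binds phosphoinositides on forming autophagosomes, fell to 33.7 to 49.01 CPM, against 84.9 to 90.6 CPM in TM siCtrl (−1.13 ± 0.07). In the list of NRF2, glutathione and thioredoxin genes, which shares CHAC1 and SLC7A11 with lists above, 20 of 31 were called lower and 6 higher (median −0.53). ME1, the cytosolic malic enzyme that makes NADPH, had 143 to 214 CPM in TM siATF4-2 and 388 to 424 CPM in TM siCtrl (−1.24 ± 0.07). The ferritin heavy chain gene FTH1 fell to 1362 to 2148 CPM, against 3835 to 4505 CPM in TM siCtrl (−1.23 ± 0.10), and its gene overlaps BEST1. Of 23 tested mTORC1 regulators and tribbles, 13 were called lower and 6 higher (median −0.32). Among them, SESN2, the leucine-sensing sestrin 2, had 68.9, 60.6, 53.2 and 77.3 CPM in TM siATF4-2 and 180.2, 168, 183 and 169 CPM in TM siCtrl (−1.43 ± 0.14).

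Of 34 tested ER chaperones and folding enzymes, 21 were called lower and 5 higher, with a median log2 change of −0.17. The higher count was 3 without replicate 1 of TM siATF4-2 and 3 without replicate 1 of TM siCtrl. HSPA5, the chaperone BiP, had 6258, 6406, 5339 and 6687 CPM in TM siATF4-2, 12276, 12857, 12417 and 10762 CPM in TM siCtrl and 969, 882, 956 and 739.5 CPM in DMSO siCtrl. The change against TM siCtrl was −0.97 ± 0.09, and that against DMSO siCtrl was 2.80 ± 0.09, so the level with siATF4-2 lay between those groups. AGR2, a disulfide isomerase of secretory cells, had 916, 923, 626 and 774 CPM in TM siATF4-2 and 2777, 2775, 2284 and 1506 CPM in TM siCtrl (−1.53 ± 0.25), with the widest spread in TM siCtrl, where replicate 4 was lowest. ERO1L, the oxidase that feeds disulfide formation, changed by −0.77 ± 0.11 and the luminal protein ERP29 by −0.88 ± 0.06. PDIA4 went the other way, at 2197 to 2558 CPM in TM siATF4-2 and 1362 to 1920.4 CPM in TM siCtrl (0.56 ± 0.07). HYOU1, another ER chaperone, was not called (−0.06 ± 0.05, adjusted p = 0.257).

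In ER-associated degradation, 21 of 31 tested genes were called lower and 6 higher (median −0.25), with ERLEC1, a lectin (−0.98 ± 0.06), EDEM1, a mannosidase-like protein (−0.73 ± 0.06), and SEL1L, a ubiquitin ligase adaptor (−0.60 ± 0.08), among the lower ones. Among 54 tested genes of ER to Golgi transport and the translocon, 33 were called lower and 5 higher (median −0.19). MCFD2, the partner of the cargo receptor LMAN1, stood below the others of that list at −1.17 ± 0.09. Of 42 N-glycan and hexosamine enzymes, 22 were called lower and 8 higher (median −0.15), led by GFPT1, the first enzyme of hexosamine synthesis (−0.71 ± 0.08). Of 18 unfolded protein sensors and eIF2 kinases, 7 were called lower and 6 higher (median −0.08). PPP1R15A, the GADD34 subunit that directs phosphatase to eIF2α, fell to 9.16 to 12.2 CPM, against 22.8 to 26.9 CPM in TM siCtrl (−1.24 ± 0.10), and ERN1, the gene of the sensor IRE1α, fell to 38.04 to 48.8 CPM, against 67.5 to 69.8 CPM in TM siCtrl (−0.72 ± 0.08).

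**Figure D4:**
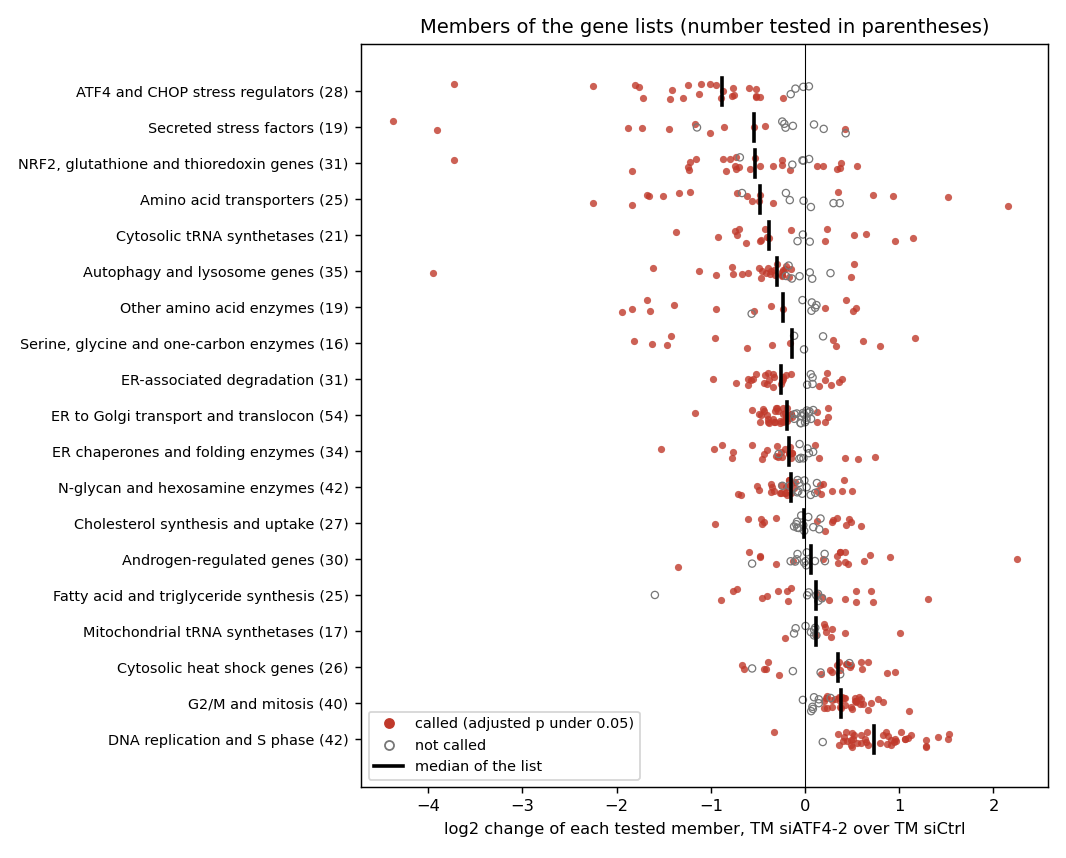
Log2 change with siATF4-2 over TM siCtrl for each tested member of 19 gene lists, 1 point per gene, filled where called. Black bars mark list medians, from −0.88 for the ATF4 and CHOP stress regulators to 0.73 for the DNA replication and S phase genes. Some genes belong to more than 1 list.

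On the raised side, DNA replication and S phase genes stood at the far end of the lists. Of 42 tested, 40 were called higher and 1 lower (median 0.73), against 28.4% called higher over all genes. MCM2, a subunit of the replicative helicase, had 37.98, 42.9, 52.4 and 49.01 CPM in TM siATF4-2, 14.5, 13.7, 14.4 and 21.4 CPM in TM siCtrl and 154, 175, 185 and 213 CPM in DMSO siCtrl. Its values rose above every TM siCtrl library (1.51 ± 0.20) and stayed far below DMSO siCtrl (−1.99 ± 0.17). MCM10, another replication initiation factor (1.52 ± 0.22), UHRF1, which reads hemimethylated DNA (1.41 ± 0.17), and CDC45, a helicase cofactor (1.28 ± 0.13), showed the same order of groups. All 42 members were called lower with siATF4-2 than in DMSO siCtrl. Of 40 G2/M and mitosis genes, 32 were called higher than in TM siCtrl and 0 lower in edgeR (median 0.38), with 0 lower at an unadjusted p under 0.05 and 0 in DESeq2 or limma-voom. CDK1, the mitotic kinase, had 101, 122, 103 and 102 CPM in TM siATF4-2 and 58.8, 68.2, 54.5 and 58.6 CPM in TM siCtrl (0.83 ± 0.06), and MYBL2, a cell cycle transcription factor, had 50.9 to 62.2 CPM in TM siATF4-2 and 25.2 to 26.9 CPM in TM siCtrl (1.11 ± 0.07). The cyclin gene CCND1 had 275 to 303 CPM in TM siATF4-2 and 167 to 190.1 CPM in TM siCtrl (0.72 ± 0.06).

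The 12 most raised genes by the same rule ran from TMEFF2 (2.25) to SNHG15 (1.68). TMEFF2 (hg19 chr2:192814747-193059644), a prostate and brain transmembrane protein regulated by androgen, had 97.3, 99.8, 111 and 102 CPM in TM siATF4-2, 15.2, 15.3, 19.7 and 36.5 CPM in TM siCtrl and 155, 172, 147 and 193 CPM in DMSO siCtrl. The TM siATF4-2 libraries lay between the other groups (2.25 ± 0.24 against TM siCtrl, −0.70 ± 0.21 against DMSO siCtrl). CAMK2N1, an inhibitor of the kinase CaMKII, had 198, 239, 227 and 184 CPM in TM siATF4-2, 39.8, 46.1, 36.01 and 73.7 CPM in TM siCtrl and 70.6, 83.7, 73.8 and 122 CPM in DMSO siCtrl, and so was above each (2.12 ± 0.21 and 1.28 ± 0.20). SEMA6A, a transmembrane semaphorin, likewise exceeded both, at 48.4 to 69.05 CPM in TM siATF4-2, 13.3 to 17.9 CPM in TM siCtrl and 17.4 to 22.4 CPM in DMSO siCtrl (2.08 ± 0.14 against TM siCtrl). The rest were KLHL1 (2.25), JAKMIP1 (2.24), the desmosomal plaque protein PKP1 (2.02), the zinc finger protein ZNF385B (2.00), the metalloprotease TLL1 (1.77), the ubiquinone synthesis enzyme PDSS1 (1.73), the thyroid hormone-binding crystallin CRYM (1.71) and the orphan receptor GPR158 (1.70). SNHG15, a snoRNA host transcript, was at 29.7 to 38.2 CPM in TM siATF4-2 and 10.2 to 12.2 CPM in TM siCtrl. KLHL1, SEMA6A, PDSS1 and GPR158 overlap another gene in the exon models, which makes their counts uncertain.

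The lipid, androgen and heat shock lists each had called members in both directions, as did all genes tested (28.4% higher and 27.2% lower). Of 25 fatty acid and triglyceride genes, 9 were called higher and 9 lower (median 0.12). FASN, fatty acid synthase, rose to 1296, 1036, 1315 and 1262 CPM in TM siATF4-2, against 493, 435, 472 and 585 CPM in TM siCtrl (1.31 ± 0.13), and was at 2732, 2895, 2239.7 and 2094 CPM in DMSO siCtrl. ACACA, the cytosolic acetyl-CoA carboxylase, rose as well (0.72 ± 0.05), while ACACB, its mitochondrial counterpart, fell (−0.89 ± 0.09). Cholesterol genes were called higher for 9 and lower for 6 of 27 (median −0.01), near the shares over all genes. SC5D, a late enzyme of the pathway, was the lowest of them (−0.95 ± 0.05). Of 30 androgen-regulated genes, 12 were called higher and 6 lower (median 0.06), the calcium channel TRPV6 being lowest (−1.35 ± 0.08). The lower count was 3 without replicate 1 and 2 without replicate 2 of TM siATF4-2. Cytosolic heat shock genes were called higher for 15 and lower for 6 of 26 (median 0.35), with CHORDC1, an HSP90 co-chaperone (0.95 ± 0.08), and HSPH1, an HSP70 partner (0.87 ± 0.16), at the top. Mitochondrial chaperones and proteases were called higher for 12 and lower for 5 of 21 (median 0.17). Ribosomal protein genes were called lower for 15 and higher for 4 of 58 (median −0.02), with 2 higher when replicate 4 of TM siCtrl was left out and 7 higher with the replicate block. RPL13A was the lowest of them (−0.84 ± 0.09), and overlaps the pseudogene RPL13AP5 in the exon models, so its reads are uncertain.

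The label of a luminal prostate line was checked against markers of prostate luminal cells and of other cell types, whose part in the changes above was not tested. Of 12 luminal markers tested, 5 were called higher and 2 lower, and their summed level was 5040 to 5293 CPM in TM siATF4-2 and 5124 to 5303 CPM in TM siCtrl. CDH1, E-cadherin, had 965 to 1137 CPM in TM siATF4-2 and 1471 to 1672 CPM in TM siCtrl (−0.54 ± 0.06). Basal markers summed to 62.7 to 78.4 CPM in TM siATF4-2 and 116 to 128 CPM in TM siCtrl, almost all of it the integrin ITGA6, which fell (−0.84 ± 0.07), while TP63 was at 0 in all libraries. Neuroendocrine markers summed to 209 to 245 CPM in TM siATF4-2 and 112 to 165 CPM in TM siCtrl. SYT4, a synaptotagmin, made up most of that sum, at 143 to 187 CPM in TM siATF4-2 and 39.02 to 76.8 CPM in TM siCtrl (1.49 ± 0.20), whereas INSM1 was at 0 in these groups. Fibroblast markers summed to 187 to 245 CPM in TM siATF4-2 and 168 to 197 CPM in TM siCtrl, with 3 of 6 tested called higher and 2 lower, and COL1A2 and CDH2 at 0 in all libraries. The lower count was 1 without replicate 3 or 4 of TM siATF4-2 and without replicate 2 or 3 of TM siCtrl. Leukocyte markers summed to 4.73 to 6.49 CPM in TM siATF4-2 and 5.71 to 6.37 CPM in TM siCtrl, with 0 of 2 tested called in edgeR, 0 at an unadjusted p under 0.05 and 0 in DESeq2 or limma-voom. Interferon-stimulated genes, tested because small RNAs can trigger them, were called lower for 11 and higher for 3 of 28 (median −0.37), with 1 higher without replicate 3 of TM siATF4-2 or without replicate 2 of TM siCtrl. IFIT2 was the lowest, at 1.16 to 2.24 CPM in TM siATF4-2 and 5.11 to 6.78 CPM in TM siCtrl (−1.76 ± 0.18). Of 11 NF-kB targets tested, 4 were called higher and 2 lower (median 0.09). Of 15 genes of the RNA interference machinery, 5 were called higher and 4 lower, and AGO2, the slicing Argonaute, had 23.5 to 25.5 CPM in TM siATF4-2 and 18.1 to 19.5 CPM in TM siCtrl (0.37 ± 0.06).

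The ATF4 siRNAs were then set against each other, which asks where siATF4-2 differed from an siRNA of the same target. This comparison uses the same TM siATF4-2 libraries as the one above. Against TM siATF4-3, 1221 genes were called higher (8.53%) and 888 lower (6.2%), and 94 and 18 of them differed at least 2-fold (0.657% and 0.126%). Without replicate 4 of TM siATF4-2, 1000 genes were called higher and 638 lower, of which 912 and 587 were also called with it. The count of genes at least 2-fold higher fell to 51 without replicate 4 of TM siATF4-2 (49 of them among the 94) and to 49 when only the libraries of both ATF4 siRNAs were fitted. Of the 28 stress regulators, 22 were called higher with siATF4-2 than with siATF4-3 and 0 lower in edgeR (0 at an unadjusted p under 0.05, 0 in DESeq2 and limma-voom), with a median difference of 0.52 against 0.01 over all genes. CHAC1 had 6.63, 6.59, 5.83 and 20.98 CPM in TM siATF4-2 and 1.53, 1.92, 1.44 and 4.29 CPM in TM siATF4-3 (2.09 ± 0.51, adjusted p = 0.00698), and edgeR on these libraries alone gave an adjusted p of 0.102. TRIB3 had 354, 317, 270.0 and 408 CPM in TM siATF4-2 and 131, 118, 104 and 150.3 CPM in TM siATF4-3 (1.42 ± 0.13). DDIT3 had 248, 268, 238 and 309 CPM in TM siATF4-2 and 159, 163, 144 and 169 CPM in TM siATF4-3 (0.74 ± 0.15), and CEBPG had 171 to 192 CPM in TM siATF4-2 and 105 to 114 CPM in TM siATF4-3 (0.77 ± 0.06). For these 4 genes no libraries of the ATF4 siRNAs overlapped, as was so for 9.22% of all genes in the higher and 7.25% in the lower direction. ATF5 and DDIT4 were not called between the oligos (0.03 ± 0.13 and 0.37 ± 0.22), although with the replicate block on these libraries alone edgeR called DDIT4 higher with siATF4-2 (0.31, adjusted p = 9.88e-05).

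By rule, the genes most raised with siATF4-2 over siATF4-3 were COL16A1, CHAC1, FAM129A, SLC7A5 and BEST1. COL16A1, a minor fibril-associated collagen, had 13.5, 8.69, 7.24 and 29.2 CPM in TM siATF4-2, 2.25, 1.71, 1.44 and 5.26 CPM in TM siATF4-3 and 90.8, 66.6, 80.3 and 88.1 CPM in TM siCtrl, which placed siATF4-2 between the others (2.44 ± 0.44 against siATF4-3). Fitted on the libraries of both ATF4 siRNAs alone, edgeR gave COL16A1 an adjusted p of 0.0733. SLC7A5, the large neutral amino acid transporter LAT1, had 21.4, 16.6, 14.3 and 25.7 CPM in TM siATF4-2 and 4.5, 5.19, 3.32 and 7.77 CPM in TM siATF4-3 (1.88 ± 0.19). BEST1, a chloride channel gene that overlaps FTH1, differed by 1.84 ± 0.17. FAM129A had 36.7 to 75.6 CPM in TM siATF4-2 and 8.88 to 22.3 CPM in TM siATF4-3 (1.91 ± 0.22).

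The genes most lowered with siATF4-2 against siATF4-3 included PLCB1, ACAP2, DHX58 and RBP7. ACAP2 (hg19 chr3:194995465-195163817), a GTPase-activating protein for ARF6, had 31.5, 39.4, 24.2 and 41.2 CPM in TM siATF4-2, 90.8, 90.3, 89.1 and 80.9 CPM in TM siATF4-3, 94.4, 103, 94.7 and 96.7 CPM in TM siCtrl and 66.6, 63.5, 60.8 and 56.02 CPM in DMSO siCtrl. Every TM siATF4-2 library lay below every library of the other groups (−1.37 ± 0.10 against siATF4-3, adjusted p = 3.44e-10). PLCB1, a phospholipase C, had 4.17, 3.55, 2.73 and 4.24 CPM in TM siATF4-2, 13.4, 10.4, 11.7 and 11.7 CPM in TM siATF4-3, 6.6, 7.13, 6.1 and 9.56 CPM in TM siCtrl and 8.62, 7.46, 9.55 and 11.7 CPM in DMSO siCtrl. It was the only gene called at least 2-fold lower with siATF4-2 against each of the other groups (−1.01 against TM siCtrl, −1.68 against siATF4-3, −1.36 against DMSO siCtrl). MCFD2, the lowest gene of the ER to Golgi list, had 137, 145, 119 and 189 CPM in TM siATF4-2 and 225, 229, 215 and 218 CPM in TM siATF4-3 (−0.59 ± 0.09). DHX58, an RNA sensor-like helicase, and RBP7, a retinol-binding protein, differed by −1.13 ± 0.23 and −1.07 ± 0.19 at under 6 CPM. STMN4, a stathmin, was the 1 gene called at least 2-fold higher with siATF4-2 against each of the other groups, with 3.11, 3.91, 2.22 and 1.44 CPM in TM siATF4-2, 1.44, 1.14, 0.987 and 0.971 CPM in TM siATF4-3 and 1.43, 1.01, 1.09 and 1.59 CPM in TM siCtrl (1.24 ± 0.26 against siATF4-3). Its replicate 4 lay within the TM siCtrl range.

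**Figure D5:**
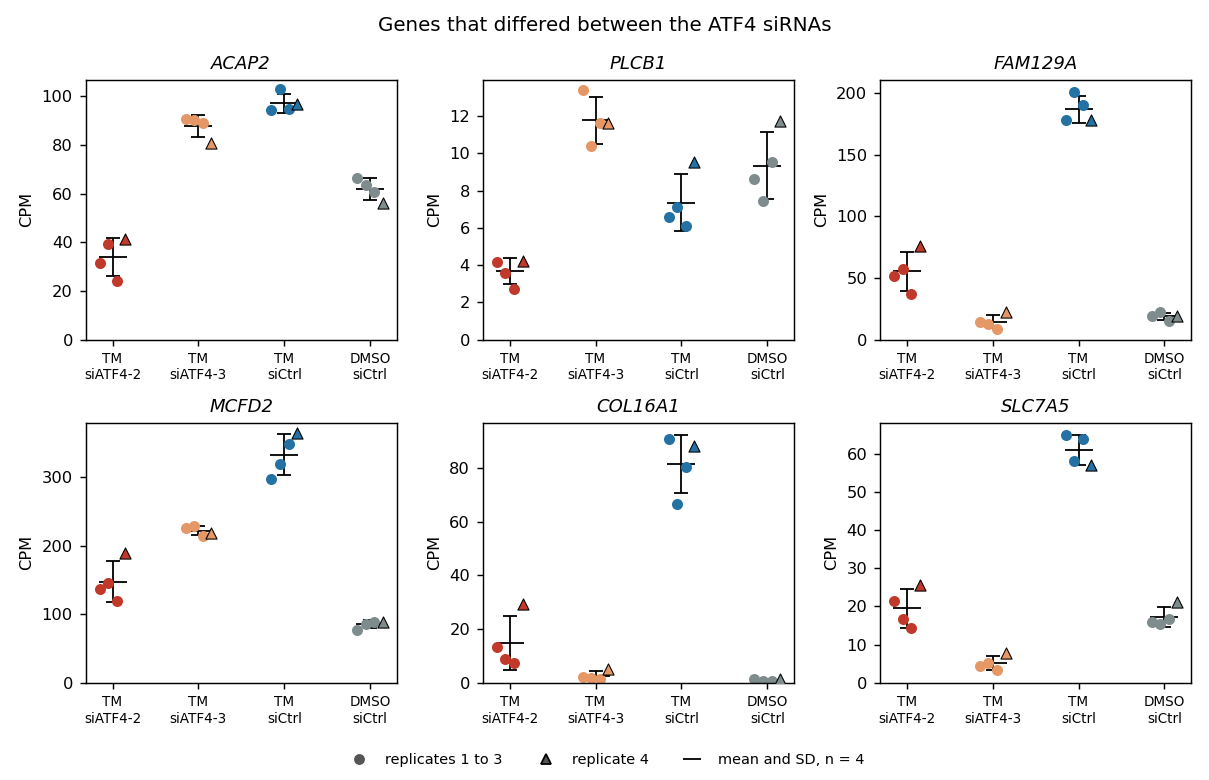
CPM in each library of genes that differed between the ATF4 siRNAs, with TM siATF4-2 at the left (triangle: replicate 4, bars: mean and SD of 4 libraries). ACAP2 and PLCB1 were lower in all TM siATF4-2 libraries than in any other library shown, and FAM129A, COL16A1 and SLC7A5 were higher there than with siATF4-3.

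TM siATF4-2 was last set against DMSO siCtrl, from which it differed in both siRNA and treatment. There were 4254 genes called higher (29.7%) and 4293 called lower (30.0%), with 561 and 735 of them at least 2-fold (3.92% and 5.13%). Of the 642 genes at least 2-fold lower than in TM siCtrl, 175 were above DMSO siCtrl (27.3%), 186 were below it (28.97%) and 281 were not called (43.8%). Those shares were close to the 29.7%, 29.99% and 40.3% of all genes tested. The 235 genes at least 2-fold higher than in TM siCtrl divided into 72 above DMSO siCtrl (30.6%), 84 below it (35.7%) and 79 not called (33.6%). The ER chaperone list stayed high, with 31 of 34 above DMSO siCtrl (median 1.66), and so did ER to Golgi transport with 50 of 54 (median 1.01). ASNS had 108 to 178 CPM in TM siATF4-2 and 234 to 256 CPM in DMSO siCtrl (−0.87 ± 0.09), and PHGDH had 205 to 330.4 CPM in TM siATF4-2 and 557 to 602 CPM in DMSO siCtrl (−1.18 ± 0.10). PSPH, the last enzyme of serine synthesis, was not called against DMSO siCtrl (−0.12 ± 0.06, adjusted p = 0.0807), but was called lower without replicate 2 of DMSO siCtrl (−0.16, adjusted p = 0.0345) and with upper-quartile scaling (adjusted p = 0.0332). GARS (0.01 ± 0.10, adjusted p = 0.96), STC2 (−0.10 ± 0.14) and SLC7A5 (0.17 ± 0.15) were not called against DMSO siCtrl, which does not show equal levels. Without replicate 4 of TM siATF4-2, STC2 was called lower than in DMSO siCtrl (−0.30, adjusted p = 0.0311). TRIB3 (1.62 ± 0.13) and FAM129A (1.55 ± 0.20) remained above DMSO siCtrl.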

How the data were processed

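Human LNCaP RNA was sequenced with a strand-specific kit, per the labels' protocols. The deposited values are raw read counts per gene. The submitters' processing notes name TopHat2 2.1.0, featureCounts 1.5.0-p1, DESeq2 1.10.1 and hg19. The strand setting of the counting step is not stated there. Exon overlaps were read from the coordinates in the deposited tables, and genes with an overlap (also ATF5, EIF2AK3, ERLEC1, MCFD2, SLC6A9, SLC7A11, TYMS and ERICH2) are uncertain.

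The 6 deposited tables were joined over 28 libraries and 25369 genes. Genes passed filterByExpr (minimum count 10, total 15), counts were scaled by TMM, and 1 group-means model was fitted with edgeR 4.0.16 in R 4.3.3 (robust quasi-likelihood F-test, two-sided). SE is the absolute log2 change over the root of F. P-values were Benjamini-Hochberg adjusted over 14314 genes. The fitting code was run on simulated counts in which changed genes differed at least 2-fold. Smaller changes and an outlying library were not simulated. DESeq2 1.42.0, limma-voom 3.58.1, other scaling, no filter, fewer libraries, left-out replicates and the replicate block were alternatives. CPM precision follows depth, and intervals are not given.

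Named genes were ATF4, EIF2AK3, FAM129A, the 12 and 12 most changed called genes (5 and 5 against siATF4-3) with a mean of at least 1 on the log2 CPM scale, separate groups and a standard symbol, and up to 4 called members per list. ATF3, BBC3, CCND1, CEBPG, DDIT3, DNAJC3, GDF15, HYOU1, PDIA4, STMN4, TYMS, VEGFA and members given only as at 0 were added after their values were seen. Some genes that the rule picks are not reported here. Members and lists were chosen with earlier results of these data known. Promoter windows came from RefSeq (GRCh38.p14) and were matched by symbol for 11089 of 14314 genes. hg19 gene positions are those of the deposited tables.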

Additional observations from a re-analysis of the deposited data

Results flagged for a closer look

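Single libraries stood far from the other 3 of their group in 33 of 444 groups of values checked, where chance gives about 1 in 20. In TM siATF4-2, 9 of 11 such values belonged to replicate 4. It was highest for CHAC1 (20.98 CPM, others 5.83 to 6.63), DDIT4 (264.9 CPM, others 112 to 118), ATF5 (43.16 CPM, others 25.99 to 28.81), SERPINA3 (2.162 CPM, others 0.573 to 0.652), LCN2 (3.523 CPM, others 0.725 to 1.18) and FLRT1 (2.082 CPM, others 0.797 to 0.819). It was also highest for TRPV6 (34.19 CPM, others 24.96 to 26.52) and RPL13A (396.8 CPM, others 268 to 273), and lowest for SEMA6A (48.44 CPM, others 65.65 to 69.05). For each of these genes, that library lay on the TM siCtrl side of its group. Replicate 2 of TM siATF4-2 was highest for CDK1 (121.7 CPM) and lowest for UHRF1 (14.64 CPM).

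In TM siATF4-3, replicate 4 was highest for CHAC1 (4.29 CPM), DDIT4 (171.1 CPM), FIBIN (0.7285 CPM) and RPL13A (397.4 CPM) and lowest for ACAP2 (80.95 CPM). Replicate 2 of that group was highest for CEBPG (114.5 CPM) and lowest for SLC38A5 (0.2844 CPM). In TM siCtrl, replicate 4 was highest for MCM2 (21.45 CPM) and RBP7 (4.98 CPM) and lowest for HOPX (13.41 CPM) and PSPH (77.82 CPM), and replicate 3 was highest for CRYM (2.541 CPM).

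In DMSO siCtrl, replicate 4 was highest for CHAC1 (40.32 CPM), DDIT3 (33.19 CPM), KLHL1 (30.07 CPM), SESN2 (53.43 CPM), STC2 (171.3 CPM) and TRIB3 (142.1 CPM) and lowest for LAMP3 (0.2114 CPM). Replicate 3 was highest for ABCA4 (0.4285 CPM) and lowest for CTH (16.47 CPM), and replicate 2 highest for PHGDH (601.5 CPM). Replicate 4 of DMSO siCtrl, which had no tunicamycin and no ATF4 siRNA, thus had high values of several of the stress genes that were high in replicate 4 of both ATF4 siRNA groups. The part of any shared step was not tested.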

How the results depend on the processing

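Counts of called genes for siATF4-2 over TM siCtrl stayed within 1.5 times the reported ones under every alternative run. Genes called higher numbered 3597 with upper-quartile scaling, 3878 with DESeq2 and 4072 with limma-voom, and genes called lower 4351, 3827 and 3920. Leaving out 1 library gave 3751 to 4074 higher and 3549 to 3864 lower. Against siATF4-3, genes at least 2-fold higher numbered 49 with only those libraries fitted, 58 with those libraries and the replicate block (an alternative chosen after seeing the data), and 51 to 110 with 1 library left out. Genes called lower against siATF4-3 numbered 1439 with those libraries and the block. The causes of these differences, the smaller number of libraries among them, were not tested.

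The replicate number was not taken as a pairing in the main fit, since what the numbers mark is not stated. Of the 4 same-numbered pairs of TM siATF4-2 and TM siCtrl libraries, 1 had a correlation of deviations under 0.1. The same-numbered pairs ranged from 0.07 to 0.22, all above the different-numbered ones (−0.09 to 0.03), a hint of pairing from the data and not the design. With TM siATF4-3 the ranges were 0.06 to 0.30 and −0.19 to 0.08, and with DMSO siCtrl 0.02 to 0.14 and −0.16 to 0.09. With the replicate block, 4325 genes were called higher and 4143 lower against TM siCtrl, and 1632 and 1260 against siATF4-3. On only the compared groups, the block also gave calls for DDIT3 and CEBPG against TM siCtrl and for DDIT4 against siATF4-3. The design text names separate experiments but does not tie numbers to them.

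With the core TGATGCAA in place of TGATGNAA, the share of promoter windows was 2.48% for genes at least 2-fold lower, 0.973% for genes called lower, 0.415% for genes at least 2-fold higher, 0.305% for genes called higher and 0.567% for all genes tested. Counting only bases before the start gave 4.552% for genes at least 2-fold lower, 2.335% for genes called lower and 1.765% for all genes tested. It gave 2.075% for genes at least 2-fold higher and 1.417% for genes called higher. The core is a subset of the element, so each share could only fall. For the named genes, 5115 refits in the 3 comparisons kept their call, 105 lost it and 75 gained it, with 0 called values of opposite sign. Where neither fit called the gene, a change of sign was not counted. Of 1120 refitted list counts, 20 moved by over 1.5 times.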
